A study of Mus musculus with 2 samples.

Results

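The endocannabinoid system of the hippocampus was read here through 8 genes, of 55536 annotated genes in the tables. They were Cnr1, the cannabinoid receptor gene, and 7 genes of lipid enzymes: Dagla, Daglb, Mgll, Faah, Napepld, Abhd6 and Abhd12. They were found by an exact match of the gene symbol in the transcript tables, a rule that uses no measured value. All 8 were found, all 8 passed the minimum of 200 expected counts used below, and together they have 40 annotated transcripts.

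The RNA was total RNA from hippocampus, labelled as a layer of it, of female B6CASTF1/J mice aged 25 days, obtained from The Jackson Laboratory. B6CASTF1/J is a first-generation hybrid of C57BL/6 and the wild-derived CAST strain. The tables do not separate the parental alleles. There was 1 group, with no treatment, and it had 2 ribosomal-RNA-reduced, stranded libraries, replicates 1 and 2, from 300 ng of RNA each. The replicates have their own biosample entries but 1 donor entry in common, so their spread may be partly technical. With 1 group, no test between conditions could be made and no p-values are given. Levels are TPM, a transcript's share of all transcripts with its length divided out, so that genes can be compared, as mean ± SD over both libraries (n = 2). Coordinates are mm10.

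Endocannabinoids are lipids that neurons make on demand and release backwards across the synapse. The main one in brain, 2-arachidonoylglycerol (2-AG), is made from diacylglycerol by diacylglycerol lipases in postsynaptic neurons, acts on the CB1 receptor of presynaptic terminals to lower transmitter release, and is cleared by serine hydrolases. Anandamide, the other, is an N-acylethanolamine with its own enzymes of synthesis and breakdown. In the hippocampus CB1 is known for its high level on the terminals of cholecystokinin basket cells and a lower level on glutamatergic terminals.

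The coding stretches below show the catalytic motif that 5 of the 7 enzymes, those of 2-AG, have in common, with the like letters of Faah beside it. Bases in capitals encode glycine-X-serine-X-glycine, the turn that carries the nucleophilic serine of alpha/beta hydrolases, where X is any residue. Each stretch is the reference sequence of the transcript of highest TPM in the gene table's companion transcript table, with 15 bases on each side, and not the allele of either parental strain.

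Dagla-201: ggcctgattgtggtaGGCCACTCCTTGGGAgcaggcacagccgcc

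Daglb-201: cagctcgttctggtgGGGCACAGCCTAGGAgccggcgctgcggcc

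Mgll-204: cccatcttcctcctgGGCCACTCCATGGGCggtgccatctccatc

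Abhd6-202: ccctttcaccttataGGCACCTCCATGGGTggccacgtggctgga

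Abhd12-201: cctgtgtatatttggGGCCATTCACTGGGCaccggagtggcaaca

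Faah-201: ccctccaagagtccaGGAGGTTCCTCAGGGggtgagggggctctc

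The serine was codon 472 of 1044 in Dagla, 443 of 669 in Daglb, 122 of 303 in Mgll, 148 of 336 in Abhd6 and 246 of 398 in Abhd12. These stretches lie at chr19:10254884-10254928 on the minus strand in exon 14 of 20 (Dagla) and chr5:143494548-143494592 on the plus strand in exon 11 of 15 (Daglb). That of Abhd6 is at chr14:8042724-8042768 on the plus strand in exon 5 of 9. Those of Mgll (chr6:88808121-88809353, plus strand, exons 4 and 5 of 8) and Abhd12 (chr2:150838769-150839754, minus strand, exons 7 and 8 of 13) are each split by an intron. The codon before the serine was CAC in Dagla, Daglb and Mgll, CAT in Abhd12, which also encodes histidine, and ACC, threonine, in Abhd6. Faah belongs to another fold, the amidase signature family, and its match at codons 215 to 219 of 579 (chr4:116005113-116005157, minus strand, exon 5 of 15) lies in that signature. Dagla had 3 matches over its coding sequence, and Mgll, Abhd12 and Faah had 2 each. The stretch shown is the one with the serine known as the nucleophile, except in Faah, whose nucleophile is another serine. The letters are common, since 18.5% of 21462 protein-coding genes hold at least 1 match, so a match alone describes little.

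Napepld is no serine hydrolase but a zinc-dependent phospholipase of the metallo-beta-lactamase fold. In the next stretch the capitals encode histidine-X-histidine-X-aspartate-histidine, the metal-binding motif of that fold, at codons 185 to 190 of 396 (chr5:21675811-21675858, minus strand, exon 3 of 5). Of the same 21462 genes, 0.168% hold it.

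Napepld-202: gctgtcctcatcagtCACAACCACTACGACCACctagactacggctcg

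Cnr1 (ENSMUSG00000044288.6, chr4:33924593-33948831, plus strand) encodes the CB1 receptor, the G-protein-coupled receptor through which both lipids act in brain. Its level was 79.93 TPM in replicate 1 and 75.91 TPM in replicate 2, or 77.9 ± 2.84 TPM (n = 2), from 9733 and 11969 expected counts. That was above 90.9% of nuclear protein-coding genes detected in both libraries. The libraries differed little, and its rank among the 8 genes was 3 in both. In tissue RNA, fewer cells of a type and less RNA per cell cannot be told apart, for this and every gene below.

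The synthesis of 2-AG rested on RNA of 2 lipase genes at unlike levels. Dagla (ENSMUSG00000035735.10, chr19:10245265-10304877, minus strand), the lipase that makes most 2-AG for synaptic signalling, had 64.67 TPM in replicate 1 and 49.28 TPM in replicate 2, or 57.0 ± 10.9 TPM (n = 2). Replicate 2 was the lower, and the SD was the widest of the 8 genes. Daglb (ENSMUSG00000039206.13, chr5:143464584-143505942, plus strand), its paralog, had 10.63 and 10.16 TPM, or 10.4 ± 0.332 TPM (n = 2). Dagla exceeded Daglb 6.08-fold in replicate 1 and 4.85-fold in replicate 2, so its excess held in both libraries while its size did not.

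The breakdown of 2-AG had 3 hydrolase genes, all above the level of Daglb. Mgll (ENSMUSG00000033174.17, chr6:88724412-88828360, plus strand) encodes monoacylglycerol lipase, the main 2-AG hydrolase of brain. It had 90.39 and 77.82 TPM in replicates 1 and 2, or 84.1 ± 8.89 TPM (n = 2). Abhd12 (ENSMUSG00000032046.15, chr2:150832493-150904741, minus strand), whose enzyme also hydrolyses lysophosphatidylserine, was the highest of all 8 genes at 125.69 and 132.51 TPM, or 129 ± 4.82 TPM (n = 2). Abhd6 (ENSMUSG00000025277.14, chr14:8002902-8056763, plus strand), a membrane hydrolase of postsynaptic sites, had 34.29 and 31.89 TPM, or 33.1 ± 1.70 TPM (n = 2). Of the summed TPM of these 3 genes Abhd12 took 50.2% and 54.7% in replicates 1 and 2, Mgll 36.1% and 32.1%, and Abhd6 13.7% and 13.2%. RNA shares are not shares of enzyme activity.

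The best known enzymes of anandamide synthesis and breakdown also had unlike levels. Napepld (ENSMUSG00000044968.16, chr5:21662901-21701396, minus strand), the phospholipase that releases anandamide from its membrane precursor, had 11.05 and 9.96 TPM, or 10.5 ± 0.771 TPM (n = 2). Faah (ENSMUSG00000034171.13, chr4:115967145-116017926, minus strand), the fatty acid amide hydrolase that degrades anandamide, had 65.46 and 56.65 TPM, or 61.1 ± 6.23 TPM (n = 2). Faah exceeded Napepld 5.92-fold in replicate 1 and 5.69-fold in replicate 2, but much of the RNA of Faah was in noncoding transcripts, described below. By the TPM of protein-coding transcripts alone, an alternative chosen after seeing the data, the excess was 3.27-fold and 3.60-fold, and that of Dagla over Daglb 6.93-fold and 5.18-fold.

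Among the members, the 2-AG breakdown genes summed above the 2-AG synthesis genes in both libraries. The 2 synthesis genes summed to 75.3 and 59.4 TPM and the 3 breakdown genes to 250.4 and 242.2 TPM. The breakdown sum was thus 3.32-fold the synthesis sum in replicate 1 and 4.08-fold in replicate 2, with 3 genes set beside 2. Both sums include noncoding transcripts. These took 26.6% and 23.0% of the TPM of Abhd12, the highest breakdown gene. Of the TPM of Dagla, the higher synthesis gene, they took 3.93% and 2.17%. The second deposited quantification, made from reads, gave 3.70-fold and 4.58-fold. By deposited gene TPM Mgll alone was 1.40-fold and 1.58-fold Dagla. These are ratios of RNA, not of enzyme activity. The gap between the libraries went with the synthesis sum, at 67.4 ± 11.2 TPM (n = 2), where Dagla had 64.67 and 49.28 TPM. The breakdown sum was 246.3 ± 5.76 TPM (n = 2). Within it Mgll and Abhd6 were lower in replicate 2 and Abhd12 was higher.

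By deposited gene TPM the order of levels fell into steps. Abhd12 was clear of Mgll, with its lowest value of 125.69 TPM above Mgll's highest of 90.39 TPM. Mgll and Cnr1 overlapped, as did Faah and Dagla, and as did Napepld and Daglb. Cnr1 did not overlap Faah, Dagla did not overlap Abhd6, and Abhd6 stood 3.15-fold above Napepld by means with no overlap. By deposited TPM 6 of 8 genes had the same rank in both libraries, and the 2 that swapped were Napepld and Daglb, the lowest pair. Second-quantification levels were higher for every member, by 1.5-fold (Dagla) to 1.82-fold (Abhd6), beside a median of 1.63-fold over 12957 genes. There all 8 ranks were the same in both libraries, and the order of means was that of the gene table. Mgll, at 161.7 and 140.3 TPM, did not overlap Cnr1 there, at 129.5 and 123.6 TPM. Nor did Faah, at 112.5 and 98.3 TPM, overlap Dagla, at 96.6 and 74.7 TPM. Napepld and Daglb overlapped there too. By TPM of protein-coding transcripts Dagla, at 62.14 and 48.22, did not overlap Faah, at 36.15 and 35.84, and stood above it. By the same measure Mgll, at 81.51 and 73.05, did not overlap Cnr1, at 69.77 and 69.04. Napepld, at 11.05 and 9.96, did not overlap Daglb, at 8.97 and 9.30.

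**Figure D1:**
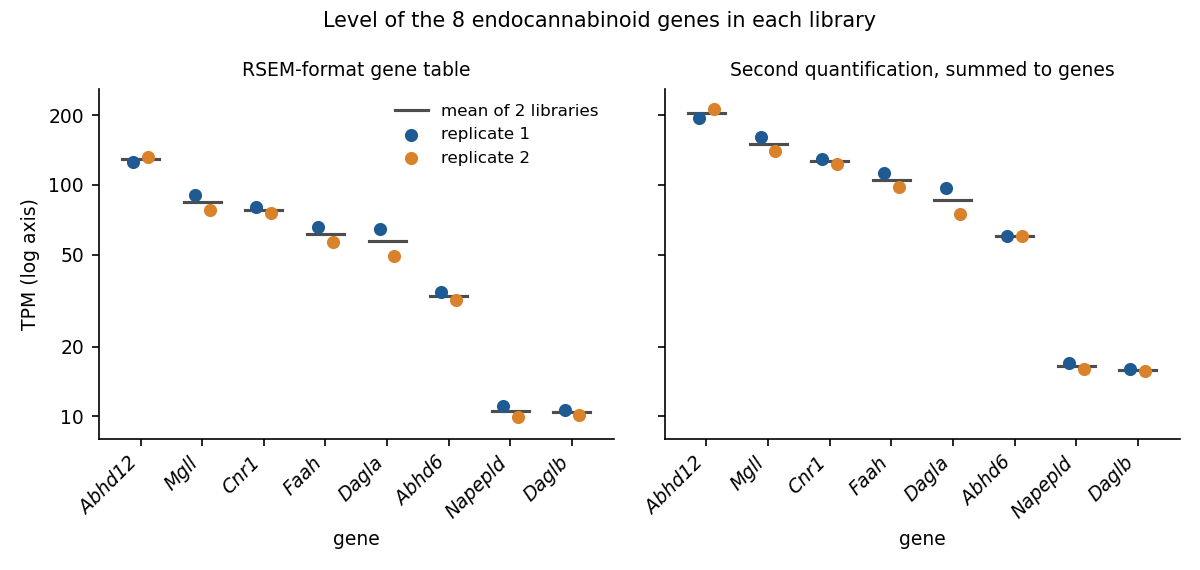
TPM of the 8 genes on a log axis, in the RSEM-format gene table (left) and the second quantification summed to genes (right); points are the libraries and bars the mean of both. Abhd12 sits highest and Napepld and Daglb lowest in both panels, and the points of Dagla, at 64.67 and 49.28 TPM on the left, lie furthest apart.

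No member differed 2-fold between the libraries. Of the 12962 genes that reached 200 expected counts in sum, 107, or 0.825%, were at least 2-fold apart, and of the members 0 of 8 were. A share this low leaves few members to be called, so the 0 is close to the background. Lower TPM in replicate 2 was found in 7 of 8 members, beside 64.9% of all genes tested. The median ratio of replicate 2 to replicate 1 was 0.916 over the members and 0.952 over all genes tested.

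Dagla was furthest from 1, with a ratio of 0.762 (95% exact Clopper-Pearson counting interval 0.739 to 0.786), and 8.84% of genes tested had a lower ratio. The interval covers counting error only, here and below. Its expected counts were 8362 and 8081, the only member count that was smaller in the deeper library. The second quantification listed it at 96.6 and 74.7 TPM, a ratio of 0.773. Mgll, at 0.861 (0.834 to 0.889), and Faah, at 0.865 (0.832 to 0.900), were also lower in replicate 2, with 23.9% and 25.0% of genes tested below them. Napepld was at 0.901 (0.827 to 0.982).

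The other 4 ratios lay near 1 and their direction turned with the scaling. Cnr1 was at 0.95 (0.925 to 0.976), Daglb at 0.956 (0.882 to 1.04), Abhd6 at 0.930 (0.869 to 0.995) and Abhd12 at 1.05 (1.02 to 1.09). On counts scaled by TMM, a trimmed mean of gene ratios, Cnr1, Daglb and Abhd6 were higher in replicate 2, by 0.08 each on the log2 scale. Abhd12 was lower only on counts scaled to the spike-ins, at -0.01, where the median of all genes tested was -0.17. By TMM Abhd12 was higher, at 0.21. TMM moved the median of all genes tested by 0.12 on the log2 scale from its place by TPM, to 0.04. Dagla, Mgll, Faah and Napepld were lower in replicate 2 under all 7 other ways of computing the ratio, with Dagla between -0.48 and -0.26 on the log2 scale. The values nearest 0 were -0.05 for Mgll and -0.04 for Napepld, both on counts, and -0.01 for Faah, by protein-coding transcripts. The 7 were the second quantification, TPM rescaled over protein-coding genes, TMM, DESeq2 size factors, spike-ins, protein-coding transcripts alone and log2(TPM + 1). Against the TMM median, Cnr1 at 0.08 was above and Napepld at -0.04 below.

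**Figure D2:**
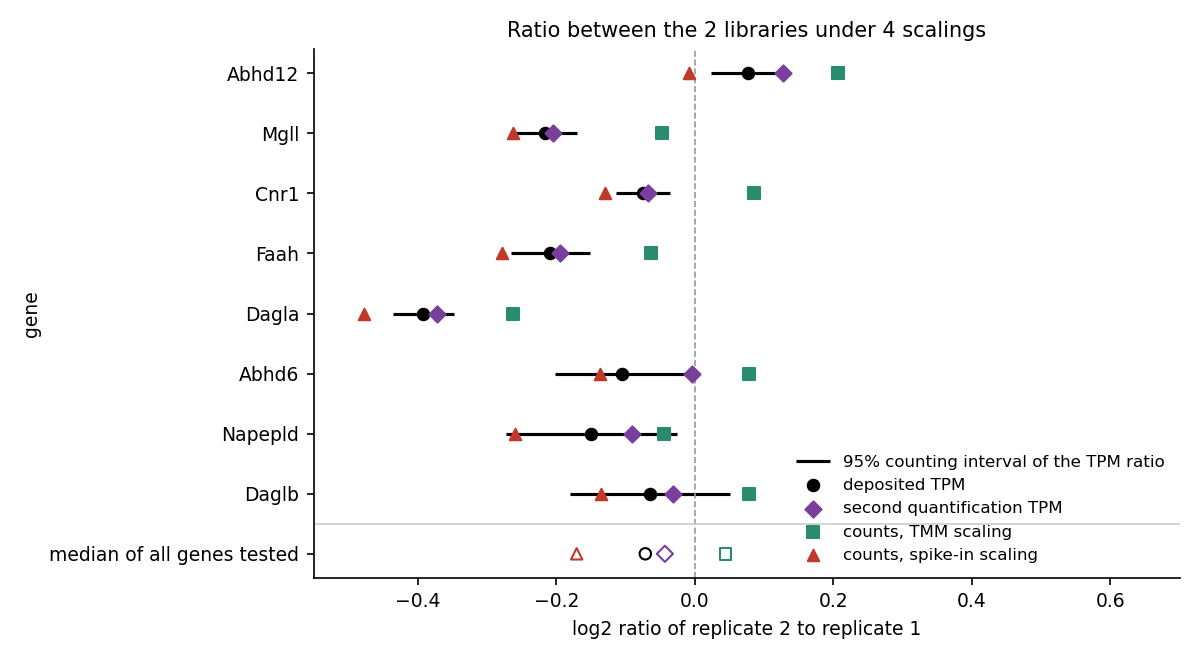
Log2 ratio of replicate 2 to replicate 1 for each gene, as deposited TPM with its 95% counting interval, as second-quantification TPM and as counts under TMM and spike-in scaling; open symbols give the median of all genes tested. Dagla lies left of 0 and of the open symbols under each of the 4 scalings, while Cnr1, Daglb, Abhd6 and Abhd12 have symbols on both sides of 0.

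Marker genes of the cell types were read beside these ratios. All 5 glutamatergic neuron markers, led by Nrgn and Slc17a7, were detected. Their sum was 1519 TPM in replicate 1 and 1414 in replicate 2. By deposited TPM 5 of 5 were lower in replicate 2, beside 64.9% of all genes tested. In the second quantification Slc17a7 was higher in replicate 2, at 984.6 and 993.4 TPM, and the others were lower. The GABAergic interneuron markers summed to 214 and 211 TPM, with 1 of 5 lower, and the Cck basket cell markers to 318.1 and 317.8. The latter sum is nearly all Cck, at 300.63 and 298.12 TPM, with the other markers at means of 1.55 to 7.98 TPM. It therefore describes Cck rather than the cell type. Field markers gave 210 and 206 TPM for CA1, 94.7 and 80.7 for CA3, and 92.4 and 85.6 for granule cells. Of these, 1 of 3, 3 of 3 and 2 of 4 were lower in replicate 2. Astrocyte sums were 491 and 496 TPM, with 2 of 5 lower, and oligodendrocyte sums 2151 and 2182, with 1 of 5 lower. The sums for oligodendrocyte precursors were 60.3 and 59.1 TPM, for microglia 100.4 and 95.5, and for endothelium 43.3 and 37.4. Lower in replicate 2 were 2 of 3, 3 of 5 and 3 of 3 of them. Choroid plexus markers summed to 27.2 and 59.7 TPM, led by Ttr. This sum is mostly Ttr, at 23.48 and 55.09 TPM, with the other markers at means of 0.38 to 3.405 TPM. Its rise thus describes Ttr rather than the cell type. In that list 2 of 4 genes were at 1 TPM or more in both libraries and Folr1 was listed at 0 in replicate 1. The part of these shifts in the members' ratios was not tested. The library totals were 34919989 and 41206890 expected counts, of which spike-ins took 0.376% and 0.429%.

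At transcript level 7 of the 8 genes had a leading transcript with over 50% of the gene's TPM, and in 7 of 8 the leader was the same in both quantifications. The exception was Mgll in each case. Of the 40 member transcripts 20 reached 200 expected counts over both libraries, and 0 of those 20 were 2-fold apart, beside 5.95% of 23300 transcripts tested. The closest were Cnr1-202 and Abhd6-201.

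Cnr1 has 2 transcripts with the same coding sequence of 1419 bases and different first exons that share 0 bases, their starts 1570 bases apart. Cnr1-201, the upstream one, held 82.2% ± 5.58 (SD, n = 2) of the gene's TPM. Its level was 62.54 and 65.39 TPM in replicates 1 and 2. Cnr1-202 had 7.23 TPM in replicate 1 and 3.65 TPM in replicate 2, a ratio of 0.505, and in the second quantification 22.7 and 12.9 TPM, a ratio of 0.567. So Cnr1-202 was lower in replicate 2 in both quantifications, while its share of the gene was 6.93% ± 3.0 (SD, n = 2) in one and 13.9% ± 5.01 (SD, n = 2) in the other. Cnr1-203, a processed transcript with no coding sequence that starts 39 bases before Cnr1-201, had 10.16 and 6.87 TPM. In the second quantification Cnr1-203 had 26.7 and 18.1 TPM, above Cnr1-202. There Cnr1-201 held 68.4% ± 9.24 (SD, n = 2) of the gene's TPM.

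The flanks of the Cnr1 starts are shown because they differ in CG content. Both are from RefSeq promoter windows on GRCm38.p6, cut to the bases before any annotated exon, plus strand, with each CG in capitals. The first is chr4:33924394-33924592, 199 bases ending before the start of Cnr1-203, and the second is chr4:33926130-33926201, 72 bases ending at the start of Cnr1-202.

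Cnr1-201 flank: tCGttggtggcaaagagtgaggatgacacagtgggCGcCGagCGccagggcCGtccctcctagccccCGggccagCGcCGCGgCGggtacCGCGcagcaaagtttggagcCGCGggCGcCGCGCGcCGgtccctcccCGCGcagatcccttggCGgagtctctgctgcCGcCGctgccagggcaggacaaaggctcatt

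Cnr1-202 flank: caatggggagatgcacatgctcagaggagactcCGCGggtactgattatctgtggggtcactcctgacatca

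The first holds 24 CG and is 71.9% G or C, the second 2 CG and 54.2%. Over the full windows of 300 bases, from 250 before to 50 after a RefSeq start, the counts were 33 and 5 CG. The median was 7 over 32851 windows of that length. The first window ends at 33924693, past the Cnr1-201 start at 33924632. The second ends at 33926429, past the Cnr1-202 start at 33926202, so most of it lies in that first exon. The full windows are thus unlike in their exonic part. Of all such windows 91.4% had fewer CG than the first and 38.0% fewer than the second. CG reads the same on both strands, and the counts describe the reference letters, not methylation. Cnr1 has a further window upstream, chr4:33924014-33924313, with 40 CG. Windows were found for 6 of the 8 genes, 10 in all, and those of Mgll (32 and 42 CG), Napepld (28), Abhd6 (24 and 26), Faah (16) and Daglb (11) all lay above the median. No window was matched for Dagla and Abhd12.

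The receptor's own motif lies in coding sequence that both coding transcripts share. The stretch below is the end of the third transmembrane helix, with the aspartate-arginine-tyrosine codons of class A receptors in capitals (codons 214 to 216 of 473, chr4:33944238-33944276, exon 2 of 2). Among the 21462 genes 8.14% hold these letters somewhere.

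Cnr1-201: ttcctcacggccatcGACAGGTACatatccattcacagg

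Mgll was spread over 3 main transcripts and was the 1 gene whose leader differed between the quantifications. Mgll-204 led the gene table's companion with 36.72 and 34.36 TPM, or 42.4% ± 2.49 (SD, n = 2) of the gene, followed by Mgll-201 with 25.13 and 22.50 TPM and Mgll-207 with 16.47 and 14.15 TPM. The deposited intervals of Mgll-204 (28.7 to 40.3 TPM) and Mgll-201 (18.2 to 35.5 TPM) overlapped in replicate 1. In the second quantification Mgll-201 led with 45.9% ± 4.83 (SD, n = 2), Mgll-207 had 20.2% ± 1.62 (SD, n = 2), and Mgll-204 had 11.3 and 24.7 TPM, 2.18-fold higher in replicate 2. Mgll-208, a nonsense-mediated-decay transcript, had 12.3% ± 0.384 (SD, n = 2) there and was listed at 0 in both libraries of the first table. Mgll-204 and Mgll-201 encode the same 909 coding bases from different first exons whose starts lie 416 bases apart, with 7 of 7 later exons identical.

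Mgll-207 differs in protein. Its coding sequence is 957 bases long, because it starts 48 bases, or 16 codons, earlier. All 48 lie inside exons of Mgll-201, ahead of the start codon used there. The last 27 of them are shown, with the start codon of Mgll-204 and Mgll-201 in capitals (chr6:88725172-88725723, plus strand, interrupted by an intron).

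Mgll-207: gaaacagggcctaaagacccctgcaggATG

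Mgll-207 held 18.2% ± 0.0286 (SD, n = 2) of the gene's TPM in the first table. Its share in the second was thus close to this, unlike that of Mgll-204.

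Abhd6 was led by Abhd6-202, with 24.07 and 26.33 TPM, or 76.4% ± 8.75 (SD, n = 2). Abhd6-201 starts 64 bases away and has the same 1008 coding bases. It had 9.53 TPM in replicate 1 and 4.90 in replicate 2, a ratio of 0.514. The second quantification listed Abhd6-201 at 25.8 and 25.6 TPM, with no such drop, and gave Abhd6-202 57.3% ± 0.112 (SD, n = 2). The fall of Abhd6-201 was thus seen in 1 of 2 quantifications.

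Napepld divided between Napepld-202, with 8.52 and 7.50 TPM or 76.2% ± 1.27 (SD, n = 2), and Napepld-201, with 2.53 and 2.46 TPM. Their starts are 2 bases apart and their 1188 coding bases the same, and the first exon runs 420 bases in Napepld-202 and 192 in Napepld-201. Both lipase genes of 2-AG synthesis had 1 protein-coding transcript each. Dagla-201 held 97.0% ± 1.24 (SD, n = 2) of Dagla and Daglb-201 88.0% ± 5.06 (SD, n = 2) of Daglb. Abhd12-201 held 75.2% ± 2.52 (SD, n = 2), with 92.28 and 102.01 TPM. Abhd12-207, a processed transcript of 1292 bases with no coding sequence, held 18.8% ± 1.47 (SD, n = 2) in the first table and 8.63% ± 0.973 (SD, n = 2) in the second. For Dagla-201 the listed TPM of 62.14 in replicate 1 lay just above its deposited interval of 58.0 to 61.7 TPM, so the interval and the level come from different estimates.

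**Figure D3:**
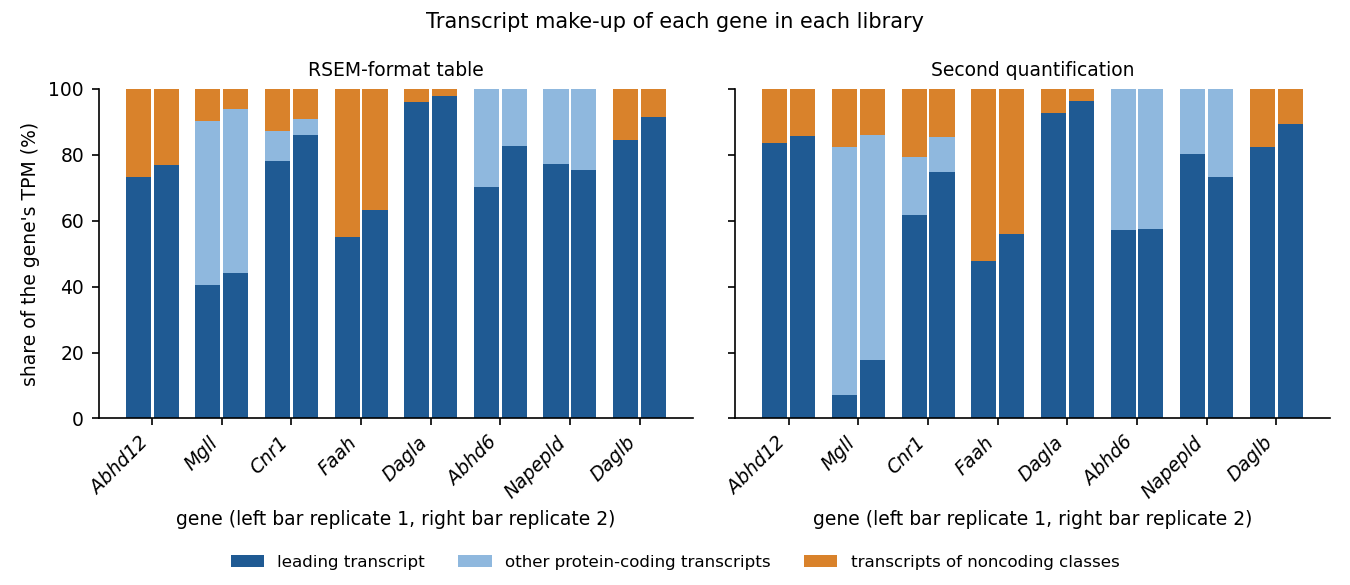
Share of each gene's TPM, in percent, taken by its leading transcript, its other protein-coding transcripts and its transcripts of noncoding classes, for replicate 1 (left bar) and replicate 2 (right bar) in each quantification; the leader is that of the RSEM-format table in both panels. Dagla is nearly all 1 transcript, Faah has the largest noncoding share, and the leading block of Mgll, Mgll-204, is small on the right.

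Faah had the highest share of transcripts outside the protein-coding class. Faah-201, its 1 protein-coding transcript, had 36.15 and 35.84 TPM, or 59.2% ± 5.68 (SD, n = 2) of the gene. The other 7 are retained-intron and processed transcripts, and they summed to 44.8% of TPM in replicate 1 and 36.8% in replicate 2. Faah-203, a retained-intron transcript of 790 bases, was the highest of them at 8.24 and 8.10 TPM. Over all genes tested 16.9% had a higher noncoding share, so that of Faah was high but not rare.

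The noncoding share was lower in replicate 2 in each of the 6 members that have such transcripts. It was 12.7% and 9.05% in replicates 1 and 2 for Cnr1, 3.93% and 2.17% for Dagla, and 15.6% and 8.46% for Daglb. For Mgll it was 9.82% and 6.14%, and for Abhd12 26.6% and 23.0%. Napepld and Abhd6 have no such transcripts. The same was found in 72.1% of 9298 genes tested, so the members' count lies near what most genes showed. In the second quantification it was again 6 of 6 members, beside 69.5% of 9331 genes. The median change was -3.67 percentage points over the members and -2.22 over all genes tested. This comparison was added after the values were seen.

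Without these transcripts some ratios came closer to 1. The coding TPM of Cnr1 was 69.77 and 69.04 and that of Faah, as above, 36.15 and 35.84, ratios of 0.990 and 0.991. Daglb turned, with coding TPM of 8.97 and 9.30, a ratio of 1.04. Dagla moved little, from 0.762 to 0.776, with 62.14 and 48.22 TPM. Abhd12 moved away from 1, from 1.05 to 1.11, with 92.28 and 102.01 TPM. By coding TPM 6 of 8 members were lower in replicate 2, beside 56.7% of 11813 genes tested.

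**Figure D4:**
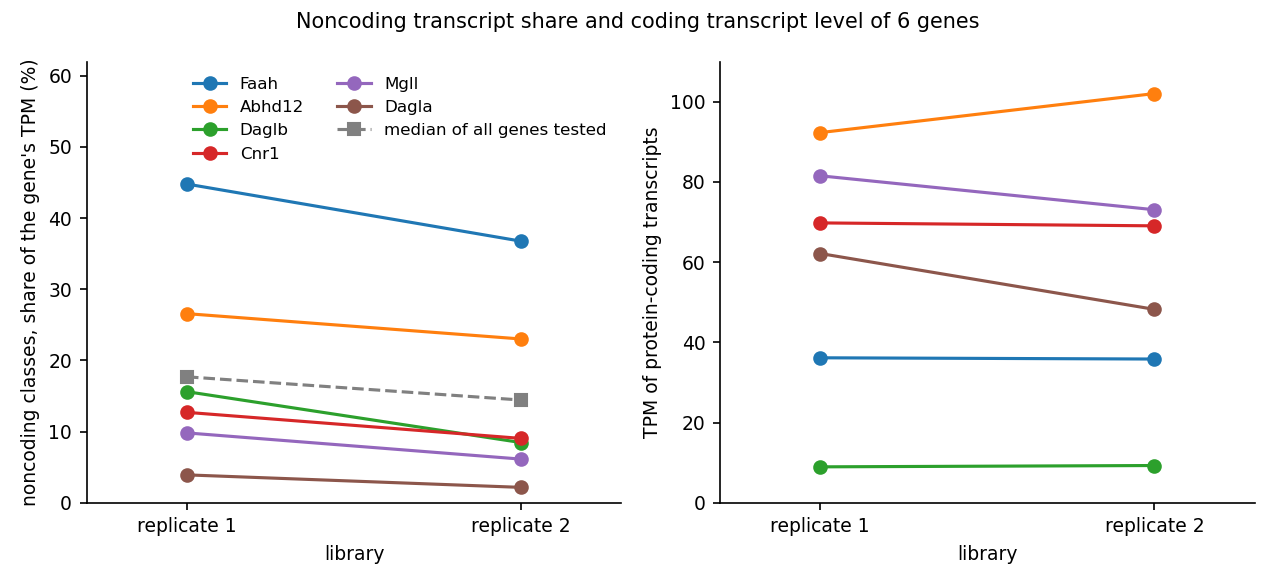
Left, share of each gene's TPM in transcripts of noncoding classes, in percent, for the 6 genes that have them, with the median of all genes tested as a dashed line; right, TPM of their protein-coding transcripts. Each line on the left falls from replicate 1 to replicate 2, while on the right Cnr1 and Faah are nearly level and Dagla falls.

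Other annotated genes overlap the members. Rac1, encoding a small GTPase, lies on the opposite strand at the end of Daglb, and 2309 exonic bases are common to both. Rac1 had 175 and 185 TPM. The tables do not say whether the counting used strand, so the level of Daglb, at 10.4 ± 0.332 TPM, is uncertain to that extent. Within introns of Mgll on its own strand lie 3 short genes of unproven class (TEC), Gm44005, Gm43999 and Gm44001, at 1.33 and 0.54, 1.19 and 0.41, and 0.69 and 0.24 TPM. Their ratios of 0.406, 0.345 and 0.348 were lower than that of Mgll, on counts of 98 and 50, 80 and 34, and 61 and 26, under the minimum of 200. They were named after their values were seen. Gm26588, antisense to the first exons of Mgll over 167 bases, had 1.22 and 0.92 TPM.

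The wider endocannabinoid pathway was read from 36 other genes in 5 lists. Of these 25 had at least 1 TPM in both libraries, 69.4% where 57.6% of 22015 nuclear protein-coding genes did. All 25 reached the count minimum. Of them 17 were lower in replicate 2, beside 64.9% of all genes tested, and 0 were 2-fold apart, beside 0.825%.

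Among receptors and partners 3 of 9 were detected. Sgip1, whose product binds CB1 and slows its internalisation, had 119.78 and 108.28 TPM, or 114 ± 8.13 TPM (n = 2), above Cnr1 in both libraries. Cnrip1, the CB1-interacting protein gene, had 51.31 and 50.14 TPM, and Ppara, a nuclear receptor for acylethanolamides, 1.12 and 1.35. Cnr2, the CB2 receptor gene of immune cells, was at 0.03 and 0.02 TPM on 3 and 2 expected counts, which is at or under the limit of 3 counts. Gpr18 and Gpr119 were listed at 0 in both libraries, although the second quantification listed Gpr18 at 0.0478 TPM in replicate 1. A count of 0 allows up to 0.0859 and 0.0728 CPM in replicates 1 and 2.

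All 9 genes of the Gq pathway, which calls up 2-AG synthesis, were detected. The metabotropic glutamate receptor gene Grm5 led with 104.41 and 92.82 TPM. Gnaq, the G-protein alpha subunit, followed with 91.54 and 76.42 TPM, and Chrm1, the M1 muscarinic receptor gene, with 82.70 and 76.53 TPM. Lower TPM in replicate 2 was found in 7 of 9, beside 64.9% of all genes tested.

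As a sum, the other genes listed for N-acylethanolamine synthesis had more RNA than Napepld. With Napepld, the 10 genes of this list summed to 185.9 and 185.1 TPM, where Faah alone had 65.46 and 56.65 TPM. The list joins enzymes of different steps and sets many genes beside 1. The sum is thus no measure of synthesis against breakdown. Of the 10 genes 7 were detected, led by Gde1, a glycerophosphodiesterase, at 97.81 and 102.88 TPM. Abhd4, a lipase that removes acyl chains from the precursor, had 26.46 and 26.13 TPM and Gdpd1, a lysophospholipase D gene, 19.66 and 19.79 TPM. All 3 exceeded Napepld, at 11.05 and 9.96 TPM, in both libraries. Hrasls5, an acyltransferase gene also called Plaat5, was listed at 0 in both.

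The other breakdown and oxidation genes were lower, with 2 of 4 detected. Naaa, an acid amidase of lysosomes, had 20.65 and 18.86 TPM, below Faah. Ptgs2, the cyclooxygenase that oxidises both lipids, had 6.93 and 6.70 TPM, and Alox12, a lipoxygenase gene, 0.13 and 0.08. All 4 intracellular lipid carrier genes were detected. These encode proteins that move lipids through the cytosol. Fabp5, a fatty-acid-binding protein gene, had 71.94 and 80.48 TPM, Fabp7 51.90 and 47.07 and Fabp3 44.90 and 45.23. In this list 1 of 4 was lower in replicate 2, beside the same 64.9%.

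**Figure D5:**
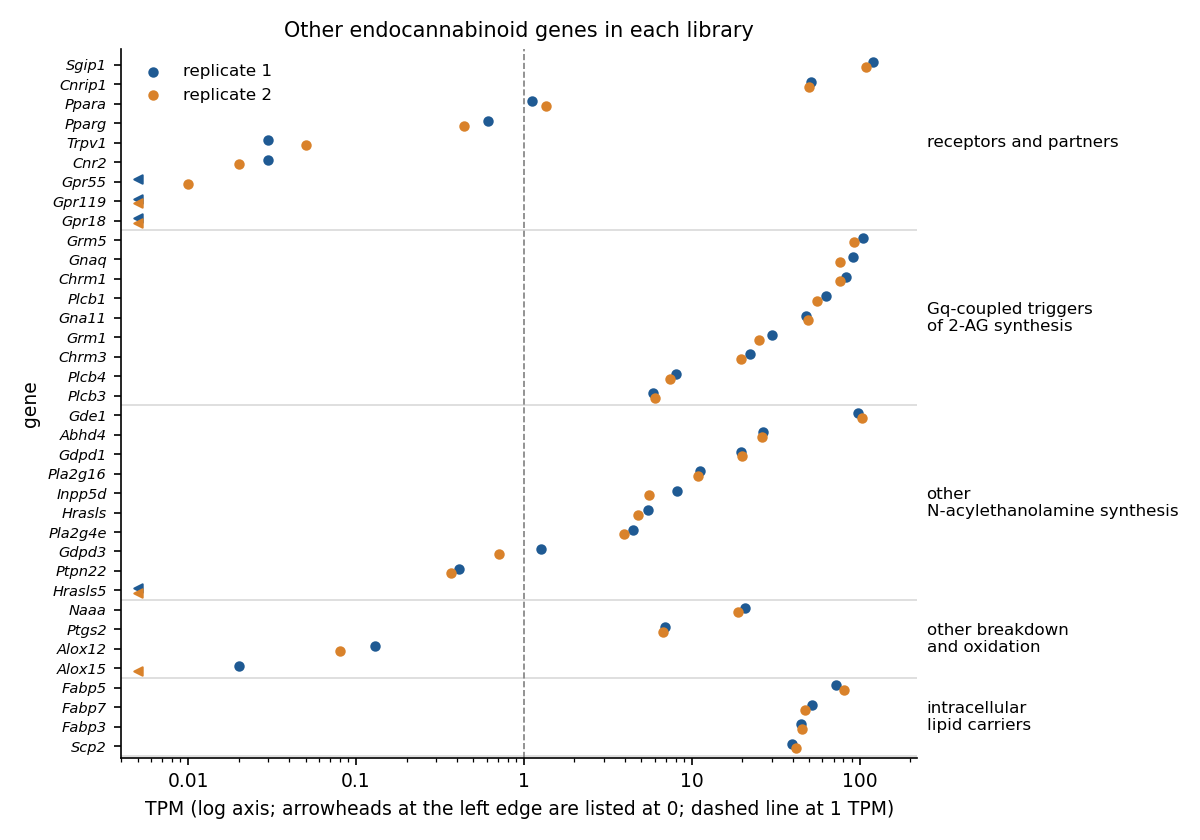
TPM of the 36 other endocannabinoid genes on a log axis in replicates 1 and 2, grouped by list, with a dashed line at 1 TPM and arrowheads for genes listed at 0. All 9 Gq pathway genes and all 4 carriers lie right of the line, while 6 of the 9 receptors and partners lie left of it.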

How the data were processed

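Hippocampal total RNA of 1 group and 2 libraries was quantified on mm10 with the GENCODE M21 annotation, per the deposited notes. The aligner, like all tool versions, is not given in the sources used here. The authors deposited gene and transcript tables in the RSEM column format, made from transcriptome alignments, with expected counts, TPM, effective lengths and the percent of its gene's TPM that each transcript takes. A second deposited transcript table, in the kallisto format and made from reads, holds estimated counts and TPM and was summed to genes here.

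The members and lists were chosen with earlier results of these data known. Named were all 8 members, their leading transcripts and those with 10% of the gene's TPM in both libraries. Of each list the 3 highest genes and those at 0 were named. Cnr2 was named in addition, outside this rule. Of each marker list the sum was given and at most 2 genes were named. Ratios are of deposited TPM for genes whose expected counts summed to 200 or more, with 3 counts as the floor. Counting intervals, at 95%, follow Clopper and Pearson's exact method, were carried over to the TPM ratio, and cover counting error only. Expected counts were rounded for TMM factors (edgeR 4.0.16) and size factors (DESeq2 1.42.0). No model was fitted. Noncoding means every transcript class other than protein-coding. Sequences came from GENCODE M21 transcripts and RefSeq promoter windows. Ratio rule and intervals were tested on simulated data. Figures used matplotlib 3.10.9, tables numpy 2.4.6 with pandas 2.3.3 in Python 3.11.15, intervals scipy 1.17.1, and scaling R 4.3.3. Alternatives were the second quantification, 4 other scalings, log2(TPM + 1), other thresholds, coding transcripts alone and each replicate alone.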

Additional observations from a re-analysis of the deposited data

How the results depend on the processing

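No paired analysis was possible because the series has 1 group. No member was past 2-fold under any scaling or at 1.5-fold. Of all genes tested, 107 were past 2-fold by TPM, against 189 in the second quantification, 64 by TMM, 64 by DESeq2 size factors, 503 at 1.5-fold, 548 with a minimum of 50 counts and 2389 with no minimum beyond the floor. Members lower in replicate 2 numbered 7 by TPM (64.9% of all genes) and in the second quantification (58.3%), 8 by spike-ins (87.8%), 6 by coding transcripts (56.7%), and 4 by TMM (39.7%) and by DESeq2 size factors (39.4%). Those alternatives and the settings of the noncoding share were chosen after seeing the data. The leading transcript was the same in both quantifications for 7 of 8 members without replicate 1 and without replicate 2. By counts or coding transcripts all 8 ranks were the same in both libraries, but in other orders: Cnr1 was first by counts, and Dagla stood above Faah by both. Other endocannabinoid genes detected numbered 26 at 0.5 TPM, 22 at 5 TPM and 27 in the second quantification. Each member's mean moved by more than its SD in the second quantification and on rescaling over protein-coding genes. The ratios of Cnr1, Daglb, Abhd6 and Abhd12, none of them past 2-fold, changed sign under at least 1 scaling. With 1 library against 1, leaving a library out gives no ratio. The lowest member count was 1011, so counting error limits Daglb and Napepld most.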
